A study of Mus musculus with 8 samples.

Results

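The mitochondrial ribosome makes the respiratory chain proteins that are encoded by mitochondrial DNA, while all of its own proteins are encoded in the nucleus, made in the cytosol and imported. Its large subunit carries the peptidyl transferase centre and its small subunit binds and decodes the messenger RNA. Some of its proteins descend from bacterial ribosomal proteins and others arose in the mitochondrial line. Kidney tubules are rich in mitochondria because salt reabsorption needs much ATP. Complex II (succinate dehydrogenase), the target of the mutation studied here, is the respiratory complex with no subunit made on this ribosome.

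The mitochondrial ribosomal proteins were taken as all array features with a gene symbol that starts with Mrpl or Mrps and goes on with a digit. These were 129 of 45220 features on the array, for 82 genes. Large subunit symbols (Mrpl) took 79 features for 51 genes, and small subunit symbols (Mrps) took 50 features for 31 genes. The split is by symbol throughout, although Mrps18a and Mrps30 code for proteins of the large subunit. Each of 60 genes had 1 feature, and 22 genes had 2 or more. The symbols include 4 pseudogenes (Mrpl23-ps1, Mrpl27-ps, Mrps36-ps1 and Mrps36-ps2), whose spots may also bind RNA of the parent gene. Pseudogene and parent values are therefore uncertain as values of 1 gene.

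Kidney RNA was measured on 8 two-colour arrays. The test RNA came from SDHD-ESR mice on 4 arrays and from +/- mice on 4 arrays, with RNA of 2 mice on each array, so that each group stood for 8 mice. SDHD-ESR mice carried 1 null and 1 floxed allele of Sdhd together with a Cre recombinase that tamoxifen activates. The +/- mice carried the same 2 alleles without Cre. The reference on every array was 1 pool of RNA from 8 +/+ mice, which carried 1 floxed allele, 1 wild-type allele and no Cre. All mice were males of the 129/SvJ strain, received 100 µg/g tamoxifen daily for 4 days at 9 weeks of age and were 10 weeks old when killed, 1 week after the first injection. Deletion of Sdhd always went with Cre, and the effects of each cannot be told apart. Every array carried its test RNA in Cy5 and the reference in Cy3, so a dye effect and a difference from the pool cannot be told apart either.

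Each value is the log2 of test RNA over pool with the array's median set to 0, and differences are SDHD-ESR minus +/- on that scale. The sign of the deposited table was turned, because Sdhd stood above the pool on all 8 arrays there. The direction used here thus opposes that of the deposited table, while the paper itself lists Sdhd as down-regulated in SDHD-ESR kidney. After turning, Sdhd was at -4.26, -3.65, -5.04 and -3.25 in SDHD-ESR arrays 1 to 4, against -0.79, -0.40, -0.92 and -0.93 in +/- arrays 1 to 4, a difference of -3.29 ± 0.37 (SE). Since Sdhd set the sign of the table, its values are given as a description with no test. The feature positions were inferred from the agreement of repeated spots, not from a key. Array medians before centring ran from -0.06 to 0.94 in SDHD-ESR and from -0.19 to 0.41 in +/-. Replicates 1 and 2 of both groups lay on 1 slide and replicates 3 and 4 on the other. The groups took different positions on the slides, and these cannot be told apart from genotype.

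Of the 129 features, 128 were tested because 3 or more values were left in both groups. Mrps36-ps1 was not, with values on 2 SDHD-ESR arrays only. In 7 further features (Mrpl2, Mrpl12, Mrpl14, Mrpl20, Mrpl51, Mrpl57 and Mrps34) the deposited ratio lay within 0.01 of 0 on most arrays. All features near 0 on most arrays had a median difference of -0.26 after centring, since centring moves such ratios by the array medians. The differences of these 7, -0.23 to -0.12, repeat that shift in part and were left out of the counts. Mrpl12, which also binds the mitochondrial RNA polymerase, is thus not measured here. The counts below rest on the other 121 features, for 74 genes.

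In both groups these messenger RNAs read slightly above the pool after centring, where a dye effect cannot be told apart. The median of the 121 features was 0.13, 0.18, 0.15 and 0.22 in SDHD-ESR arrays 1 to 4 and 0.20, 0.17, 0.23 and 0.23 in +/- arrays 1 to 4. On each SDHD-ESR array 95 to 104 of the features lay above the array median, and on each +/- array 107 to 114 did. The features were packed closely. Their middle range on SDHD-ESR array 1 ran from 0.03 to 0.23, while that of all features ran from -0.35 to 0.25.

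**Figure D1:**
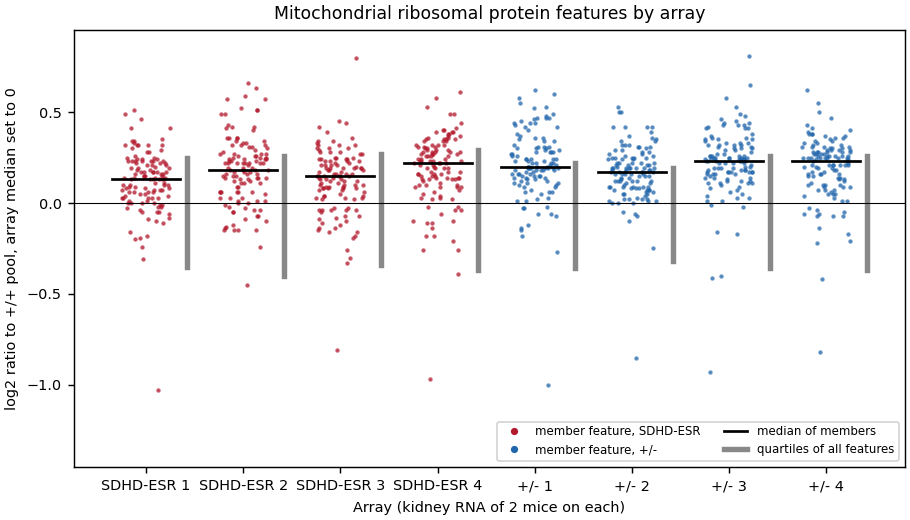
Log2 ratio to the +/+ pool (array median set to 0) of each of the 121 measured features on each array, with SDHD-ESR in red and +/- in blue. Black lines are medians of the features (0.13 to 0.22 in SDHD-ESR, 0.17 to 0.23 in +/-) and grey bars are the quartiles of all features. The lowest point on each array is Mrpl21.

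The group means stood in the same range. In SDHD-ESR the median over features was 0.15 and 105 of 121 lay above the pool, against 50.9% of all features. In +/- the median was 0.20 and 115 of 121 lay above it, against 50.3% of all features. Other lists read above the pool too. By gene, the medians in SDHD-ESR and +/- were 0.14 and 0.20 for the members and 0.13 and 0.14 for cytosolic ribosomal proteins. They were 0.12 and 0.19 for mitochondrial translation factors, 0.12 and 0.16 for complex I subunits and 0.22 and 0.26 for ATP synthase subunits. Subunits of complexes III and IV were at 0.00 and 0.07. In limma tests against the pool (Benjamini-Hochberg over 39253 features), 36 features were above and 1 was below it in SDHD-ESR at an adjusted p of 0.05 or less, where 14.9% of all features were called above and 7.94% below. In +/-, 41 were above and 1 below, where 10.3% and 6.11% of all features were called. Spots of 1 gene count more than once here. With features averaged, 24 of 74 genes were called above the pool in SDHD-ESR, against 3281 of all 20076 genes. In +/- 28 of 74 genes were, against 2320 of all genes. These calls depend on single arrays and on centring. Leaving out SDHD-ESR arrays 1 to 4 in turn gave 12, 5, 11 and 7 features above the pool in SDHD-ESR, and leaving out +/- array 3 or 4 gave 23 or 21. Leaving out +/- arrays 1 to 4 in turn gave 5, 12, 6 and 2 in +/-. Without centring there were 0 in both groups. The shares of all features called were not counted under these settings. Both comparisons share the pool, which is 1 sample whose own spread is left out.

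**Figure D2:**
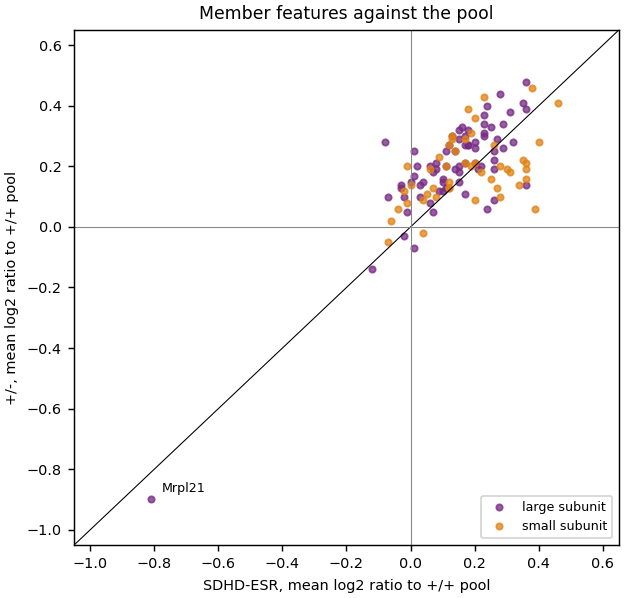
Mean log2 ratio to the +/+ pool in SDHD-ESR (horizontal) and +/- (vertical) of each of the 121 features, coloured by subunit symbol (Mrpl or Mrps), with the line of equal values. Both axes share the pool. Mrpl21 lies apart at -0.81 in SDHD-ESR and -0.90 in +/-, and the other features lie near the line, mostly above 0 on both axes.

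Mrpl21, the counterpart of bacterial ribosomal protein L21 in the large subunit, was the 1 feature called below the pool in both groups. It stood at -1.03, -0.45, -0.81 and -0.97 in SDHD-ESR arrays 1 to 4 and at -1.0, -0.85, -0.93 and -0.82 in +/- arrays 1 to 4. All 8 arrays were below the pool and the groups overlapped. The mean was -0.81 ± 0.26 in SDHD-ESR (SD, n = 4, adjusted p = 0.00295, limma) and -0.90 ± 0.08 in +/- (SD, n = 4, adjusted p = 0.0033, limma). The difference between the groups was 0.08 ± 0.14 (SE) with an adjusted p of 0.907 (limma). Without centring the means were -0.50 in SDHD-ESR (adjusted p = 0.169, limma) and -0.84 in +/- (adjusted p = 0.112, limma). The gene had 1 feature, so no second spot checks its value. Ighmbp2, a helicase gene whose start overlaps that of Mrpl21 in the RefSeq annotation, had features at -0.26 and 0.27 in SDHD-ESR and at -0.21 and 0.32 in +/-.

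The highest features against the pool in SDHD-ESR were Mrps18c at 0.46 ± 0.15, a feature of Mrps35 at 0.40 ± 0.17 and Mrps9 at 0.39 ± 0.28 (SD, n = 4 each). In +/- they were Mrpl39 at 0.48 ± 0.18, Mrps24 at 0.46 ± 0.09 and Mrpl18 at 0.44 ± 0.09 (SD, n = 4 each). Mrps18c had 0.49, 0.66, 0.34 and 0.35 in SDHD-ESR arrays 1 to 4 and 0.37, 0.50, 0.41 and 0.37 in +/- arrays 1 to 4. All 8 values were above the pool and the groups overlapped. At the low end after Mrpl21, a feature of Mrpl47 was at -0.12 ± 0.17 in SDHD-ESR and -0.14 ± 0.25 in +/- (SD, n = 4 each). The other feature of Mrpl47 was at 0.11 ± 0.06 in SDHD-ESR and 0.13 ± 0.03 in +/- (SD, n = 4 each). The feature at the lower values lay within 0.01 of 0 on 3 arrays before centring. Mrpl43 was the third lowest in SDHD-ESR, with a feature at -0.08 ± 0.15, and Mrpl33 the third lowest in +/-, at -0.07 ± 0.11 (SD, n = 4 each).

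Between SDHD-ESR and +/- kidneys, no mitochondrial ribosomal protein passed the test. Of 121 features, 0 had an adjusted p of 0.05 or less (limma), where 0.0131% of all features were called higher and 0.00262% lower, and the smallest adjusted p was 0.657. At an unadjusted p of 0.05 or less there was 1 higher feature, of Mrps35 (0.826%, against 3.99% of all features), and there were 0 lower ones, against 3.44% of all features. Under the methods' t-test, 2 were higher and 9 lower before adjustment and 0 after it. The shares of all features called by that test were not counted, so 9 lower members cannot be read as an excess. Simulated data with 200 changed features, drawn at random from all features, set the reach of the limma fit for such features. The fit recovered 0% of changes of 0.5 on the log2 scale, 45% of changes of 1 and 75% of changes of 2. The reach for features with the smaller spread of the members was not simulated.

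The estimates nevertheless had narrow errors. The 95% interval of the difference lay within 1 log2 unit of 0 for all 121 features, against 70% of all features on the array. It lay within 0.5 for 116 features (95.9%), against 42.3% of all. The median SE was 0.10, against 0.17 for all features, and the differences of the members had an SD of 0.11, against 0.50. Over the 74 genes with their features averaged, all intervals lay within 1 log2 unit and 71 lay within 0.5.

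Small differences below 0 prevailed on the centred scale. Of 121 features 88 were lower in SDHD-ESR (72.7%, against 46% of all features), and the median difference was -0.06, against 0.02 over all features. Centring decides this direction. Without it only 1 feature was lower and the median was 0.20, against 0.28 over all features. Relative to the median of all features, the members stood at -0.08 under both scalings. Centring shifts all features of an array by the same amount, so this value could hardly change and is no check. Slide or replicate blocks left the medians as they were and are no check either. Among settings that can change the value, quantile normalization and scaled spreads gave -0.09 each. Leaving out single arrays gave -0.09 to -0.06. Within slide 1 the members' median difference was -0.08, with 79 lower (65.3%), against 0.03 and 45.9% lower over all features. Within slide 2 it was -0.05, with 87 lower (71.9%), against 0.00 and 49.7% lower over all features. Of the 121 features 53 were lower within both slides and 11 were higher within both, with differences that round to 0.00 counted as neither. The shares of all features lower or higher within both slides were not counted. Spots of 1 gene count more than once in these numbers. Per gene, 55 of 74 were lower (74.3%, against 46.2% of all genes), with a median of -0.07.

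Groups that did not overlap were found for 8 lower features (6.61%, against 2.61% of all features) and 1 higher feature (0.826%, against 2.92%). The lower ones belonged to Mrps22, Mrpl18, Mrpl38, Mrpl41, Mrpl43, Mrpl50, Mrpl53 and Mrps17, and the higher one to Mrps35. Per gene, 5 were lower without overlap (6.76%, against 2.85% of all genes) and 0 were higher (against 2.87%). The 1 gene with an unadjusted p of 0.05 or less was Mrps22 (1.35% lower, against 3.86% of all genes, and 0 higher, against 4.04%). No feature without overlap passed the adjusted test.

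**Figure D3:**
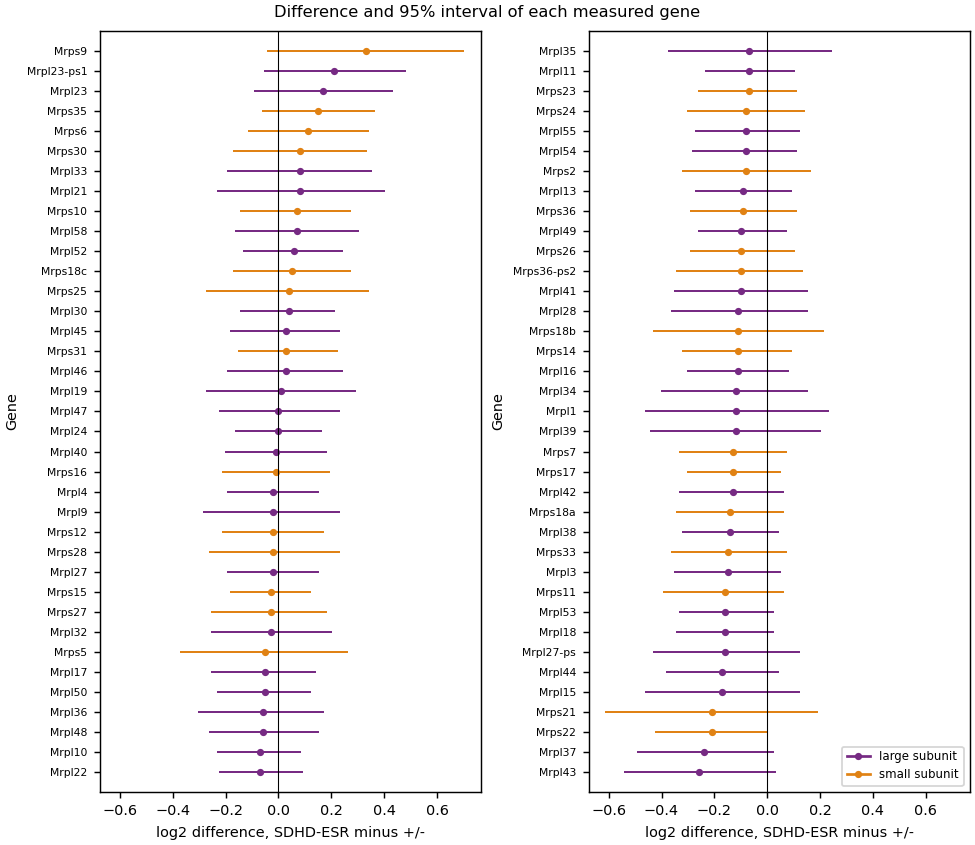
Log2 difference, SDHD-ESR minus +/-, of each of the 74 measured genes with its 95% interval (limma, features of a gene averaged), Mrpl symbols in purple and Mrps symbols in orange, from the highest (top left) to the lowest (bottom right). Values run from 0.33 for Mrps9 to -0.26 for Mrpl43, and the intervals of all genes but Mrps22 include 0.

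Mrps22, a small subunit protein without a bacterial counterpart whose human gene is linked to respiratory chain deficiency, had the smallest p among the lower genes. It stood at 0.18, 0.15, 0.10 and 0.27 in SDHD-ESR arrays 1 to 4, against 0.36, 0.29, 0.58 and 0.33 in +/- arrays 1 to 4. Every SDHD-ESR array was below every +/- array. The difference was -0.21 ± 0.09 (SE), with an adjusted p of 0.704 (limma) and an exact permutation p of 0.0286 (two-sided), the smallest that 4 against 4 arrays allow. It was -0.16 within slide 1 and -0.27 within slide 2, and 0.05 without centring.

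Mrpl43, a large subunit protein of the mitochondrial line, had the lowest difference. The mean of its 2 features was 0.02, -0.01, -0.04 and 0.09 in SDHD-ESR arrays 1 to 4, against 0.19, 0.14, 0.61 and 0.15 in +/- arrays 1 to 4. The groups did not overlap, and +/- array 3 stood far above the other arrays. The difference was -0.26 ± 0.12 (SE, adjusted p = 0.656, limma), and -0.14 without +/- array 3. Its features had differences of -0.36 and -0.15. Mrpl43 overlaps Twnk, the gene of the mitochondrial DNA helicase, in the RefSeq annotation, and Twnk was at 0.20 in SDHD-ESR against 0.54 in +/-, a difference of -0.34 ± 0.14 (SE, adjusted p = 0.671, limma). Whether the spots of Mrpl43 and Twnk read RNA of 1 gene only was not tested.

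Mrpl18, whose bacterial counterpart binds ribosomal RNA of the large subunit, stood at 0.28, 0.27, 0.24 and 0.34 in SDHD-ESR arrays 1 to 4 and at 0.55, 0.42, 0.46 and 0.34 in +/- arrays 1 to 4. The highest SDHD-ESR array and the lowest +/- array were equal to 2 decimals. Its difference was -0.16 ± 0.08 (SE, adjusted p = 0.743, limma). Mrpl53, of the mitochondrial line, stood at -0.02, 0.00, -0.14 and 0.06 in SDHD-ESR arrays 1 to 4 and at 0.16, 0.16, 0.15 and 0.07 in +/- arrays 1 to 4. The groups came within 0.01 of each other without overlap. Its difference was -0.16 ± 0.08 (SE, adjusted p = 0.743, limma).

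Mrpl37, also of the mitochondrial line, stood at 0.14, 0.00, 0.02 and -0.11 in SDHD-ESR arrays 1 to 4 and at 0.17, 0.35, 0.44 and 0.05 in +/- arrays 1 to 4. The groups overlapped through +/- array 4, and the difference was -0.24 ± 0.11 (SE, adjusted p = 0.723, limma). In Mrpl41, Mrps17 and Mrps33, each with 2 features, 1 feature had a difference of -0.18, -0.17 and -0.20 and the other of -0.02, -0.09 and -0.09, in that order. Both features of each gene thus pointed the same way, at unequal sizes.

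At the upper end, Mrps9, the counterpart of bacterial S9, stood at 0.18, 0.34, 0.80 and 0.22 in SDHD-ESR arrays 1 to 4, against -0.15, 0.02, 0.25 and 0.10 in +/- arrays 1 to 4. SDHD-ESR array 3 was the highest of all, and the groups overlapped through +/- array 3. The difference was 0.33 ± 0.16 (SE, adjusted p = 0.736, limma) and was 0.33 within each slide. It was 0.19 without SDHD-ESR array 3. Mrpl23 and Mrpl23-ps1 moved alike, with differences of 0.17 ± 0.11 and 0.21 ± 0.12 (SE, adjusted p = 0.816 and 0.772, limma). Both had differences on slide 1 (0.36 and 0.40) and next to none on slide 2 (-0.02 and 0.03).

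Of the genes with several features, 3 had 10 or more. The feature positions were chosen on the agreement of repeated spots, so the closeness of these spots is no independent measure of how well values repeat. Mrps35, a small subunit protein without a bacterial counterpart, had 10 features that were all higher in SDHD-ESR, with differences of 0.11 to 0.20. Its mean over features was 0.34, 0.49, 0.17 and 0.32 in SDHD-ESR arrays 1 to 4, against 0.14, 0.11, 0.25 and 0.21 in +/- arrays 1 to 4. SDHD-ESR array 3 lay among the +/- arrays. The gene's difference was 0.15 ± 0.09 (SE, adjusted p = 0.739, limma, exact permutation p = 0.0857, two-sided). It was 0.29 on slide 1 and 0.02 on slide 2. The 10 features share the same RNA, so they repeat the spot and not the animals.

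Mrpl34, the counterpart of bacterial L34, had 10 features that were all lower, with differences of -0.17 to -0.06. Its mean was -0.08, -0.08, 0.20 and 0.31 in SDHD-ESR arrays 1 to 4 and 0.28, 0.09, 0.17 and 0.29 in +/- arrays 1 to 4. The SDHD-ESR arrays of slide 1 were the lowest and the remaining arrays of both groups overlapped. Mrpl50 had 11 features, of which 8 were lower and 3 higher, with means of 0.15, 0.23, 0.13 and 0.29 in SDHD-ESR and 0.35, 0.19, 0.21 and 0.26 in +/-. The SD over the spots of 1 gene on 1 array was 0.03 to 0.18 for these 3 genes. Among all 22 genes with 2 or more features, 16 had all features lower, 1 (Mrps35) had all higher and 5 were mixed. Without Mrps35, Mrpl34 and Mrpl50, 70 of 90 features were lower and the median was again -0.06.

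**Figure D4:**
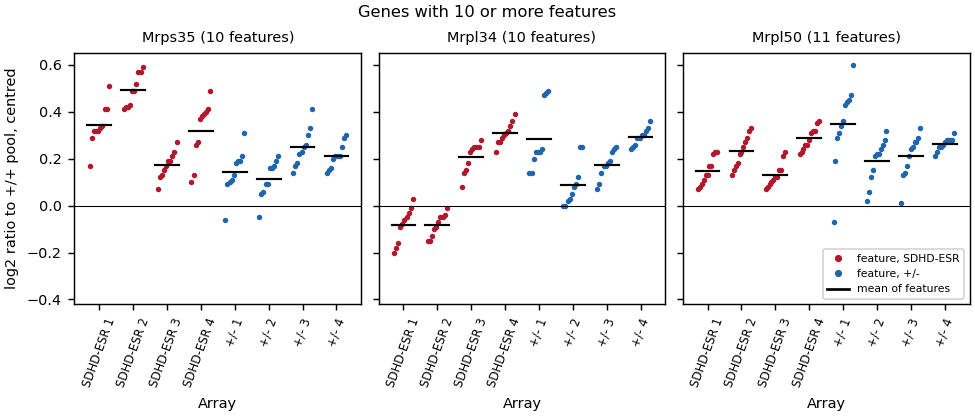
Log2 ratio to the +/+ pool (array median set to 0) of every feature of Mrps35, Mrpl34 and Mrpl50 on each array, SDHD-ESR in red and +/- in blue, with the mean over features as a black line. Spots of 1 gene cluster on each array, while arrays of 1 group differ, as for Mrpl34 at -0.08, -0.08, 0.20 and 0.31 in SDHD-ESR.

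Symbols of both subunits had medians below 0 on the centred scale. Mrpl features had a median difference of -0.08, with 57 of 73 lower, and Mrps features one of -0.03, with 31 of 48 lower. Leaving out single arrays gave Mrpl medians of -0.10 (without SDHD-ESR array 4) to -0.05 (without SDHD-ESR array 1). It gave Mrps medians of -0.05 (without SDHD-ESR array 2 or +/- array 4) to -0.01 (without SDHD-ESR array 3). Per gene both medians were -0.07, with 34 of 45 Mrpl genes and 21 of 29 Mrps genes lower. Features with a bacterial counterpart had a median of -0.07 (51 of 62 lower) and those without one a median of -0.06 (33 of 52 lower). Counted by gene, the medians were -0.06 with a counterpart (33 of 43 lower) and -0.08 without one (19 of 25 lower). The difference between these classes was not tested.

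Proteins with a known human disease gene or a known extra role lay in the same narrow band. Mrpl3 and Mrpl44, whose human genes are linked to cardiomyopathy, had differences of -0.15 ± 0.09 and -0.17 ± 0.09 (SE). Mrps16, linked to a fatal human deficiency of mitochondrial translation, was at -0.01 ± 0.09 (SE). Mrpl11, of the stalk that binds translation factors, was at -0.07 ± 0.07, and Mrps12, of the decoding centre, at -0.02 ± 0.09 (SE). Mrpl45, which holds the large subunit near the inner membrane, was at 0.03 ± 0.09, and Mrps27, a pentatricopeptide repeat protein, at -0.03 ± 0.09 (SE). Mrpl40 had features at -0.06 and 0.04.

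The 3 proteins related to bacterial S18 had unequal differences. Mrps18a, which sits in the large subunit in spite of its symbol, had a difference of -0.14 ± 0.09 (SE). Mrps18b had features at -0.12 and -0.10, and Mrps18c was at 0.05 ± 0.10 (SE). No pair of them was tested against each other. Mrps36, also described as a subunit of the 2-oxoglutarate dehydrogenase complex of the Krebs cycle, had features at -0.13 and -0.05.

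Promoter sequences were looked up in RefSeq (GRCm38.p6) for the 82 genes, and 69 matched, with 75 promoters. Each covers 250 bases before to 50 after the start site. The letters CCGGAAG, the core bound by ETS factors such as GABPA, were present on either strand in 26 member promoters (34.7%), against 8.86% of all 32851 promoters. The YY1 core AAGATGG was in 13 (17.3%, against 6.34%) and the NRF1 core GCGCATG in 8 (10.7%, against 3.91%). The E-box CACGTG was in 7 (9.33%, against 7.15%). None of these motifs contains another. A match is a description of the letters and not of binding.

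The medians of genes with and without the motifs were close. The median difference was -0.07 for the 24 measured genes with the ETS core and -0.07 for the 39 without it. It was -0.08 for the 13 with the YY1 core and -0.06 for the 50 without it. The 3 promoters printed here run from 180 bases before the start site to 20 bases from it, for the lowest p among the lower genes (Mrps22), the gene below the pool (Mrpl21) and the highest against the pool in SDHD-ESR (Mrps18c). Capitals mark the ETS core on either strand and, in Mrps18c, the E-box before it. They lie on chr9:98601660-98601859 (minus strand), chr19:3282862-3283061 (plus strand) and chr5:100798579-100798778 (plus strand) in that order.
Mrps22: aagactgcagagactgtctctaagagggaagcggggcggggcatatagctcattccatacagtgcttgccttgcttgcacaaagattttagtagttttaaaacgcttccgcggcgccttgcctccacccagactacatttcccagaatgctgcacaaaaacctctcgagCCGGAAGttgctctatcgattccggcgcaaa
Mrpl21: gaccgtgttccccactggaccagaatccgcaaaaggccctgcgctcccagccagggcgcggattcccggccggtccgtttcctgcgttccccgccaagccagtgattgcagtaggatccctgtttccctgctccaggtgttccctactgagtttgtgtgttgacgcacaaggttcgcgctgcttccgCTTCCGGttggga
Mrps18c: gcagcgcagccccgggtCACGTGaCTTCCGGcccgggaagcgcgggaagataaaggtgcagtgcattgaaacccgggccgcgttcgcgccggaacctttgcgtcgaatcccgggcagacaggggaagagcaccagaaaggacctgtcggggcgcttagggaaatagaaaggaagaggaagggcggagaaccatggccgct

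The ETS core begins 11 bases before the start site in Mrps22 and at base 8 after it in Mrpl21. All 3 printed promoters hold an ETS core. The differences of these genes were -0.21 (Mrps22), 0.08 (Mrpl21) and 0.05 (Mrps18c), with adjusted p of 0.704, 0.907 and 0.933 (limma). A link between the motif and the differences was not tested. Of the transcription factors known to act on such genes, Gabpa had a difference of -0.11 ± 0.09, Yy1 of -0.01 ± 0.06 and Nrf1 of 0.01 ± 0.24 (SE). Pprc1, a coactivator of the PGC family, was at 1.73 in SDHD-ESR against 0.12 in +/-, a difference of 1.6 ± 0.47 (SE). Myc was at 0.69 in SDHD-ESR against -0.07 in +/-, a difference of 0.75 ± 0.29 (SE). None of the 12 genes on this list passed the adjusted test, where the smallest adjusted p was 0.519 (limma, 20076 genes), 0.00996% of all genes were called higher and 0.00498% lower.

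The other steps of mitochondrial gene expression were counted as lists, with no test between lists. The 4 measured mitoribosomal proteins with other names (Dap3, Ptcd3, Gadd45gip1 and Chchd1) had a median difference of 0.05. Of 15 measured translation factors 11 were lower, with a median of -0.05. The elongation factors Gfm1 and Tufm stood at 0.17 and 0.12 in SDHD-ESR against 0.37 and 0.29 in +/-, differences of -0.20 ± 0.07 and -0.17 ± 0.07 (SE). Mtrf1 went the other way, at 0.00 in SDHD-ESR against -0.28 in +/-, a difference of 0.28 ± 0.17 (SE). The 19 measured aminoacyl-tRNA synthetase genes had a median of 0.02, with 6 lower. Among the lower ones, Fars2 and Rars2 had differences of -0.20 ± 0.08 and -0.28 ± 0.11 (SE). Among 23 assembly and rRNA modification factors, with a median of -0.04, the helicase Dhx30 had a difference of -0.32 ± 0.08 and the rRNA chaperone Eral1 one of 0.30 ± 0.12 (SE). The 11 transcription and replication factors had a median of -0.04. In none of these lists did a gene pass the adjusted test.

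The respiratory subunits made in the cytosol, which join those made on the mitochondrial ribosome, had medians of -0.05 (19 genes of complex I), -0.08 (6 of complexes III and IV) and -0.07 (4 of ATP synthase). Of the listed subunits, 19 of 36, 6 of 20 and 4 of 15 were measured in that order, since features near 0 on most arrays were left out. Ndufb8, Ndufb9 and Ndufa13, at -0.26, -0.26 and -0.23, were near 0 on 4 or 5 arrays. The 49 cytosolic ribosomal protein genes had a median of -0.02, with 28 lower. They spread from -0.82 (Rpl10l, SE 0.46) to 0.86 (Rps3a1, SE 0.18), against -0.26 to 0.33 for the 74 mitochondrial ones. Rpl10, Rpl29, Rpl35 and Rps20 had differences of -0.27, -0.26, -0.26 and -0.26. Their group means lay close to the medians of all features near 0 on most arrays (-0.32 in SDHD-ESR and -0.06 in +/-).

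**Figure D5:**
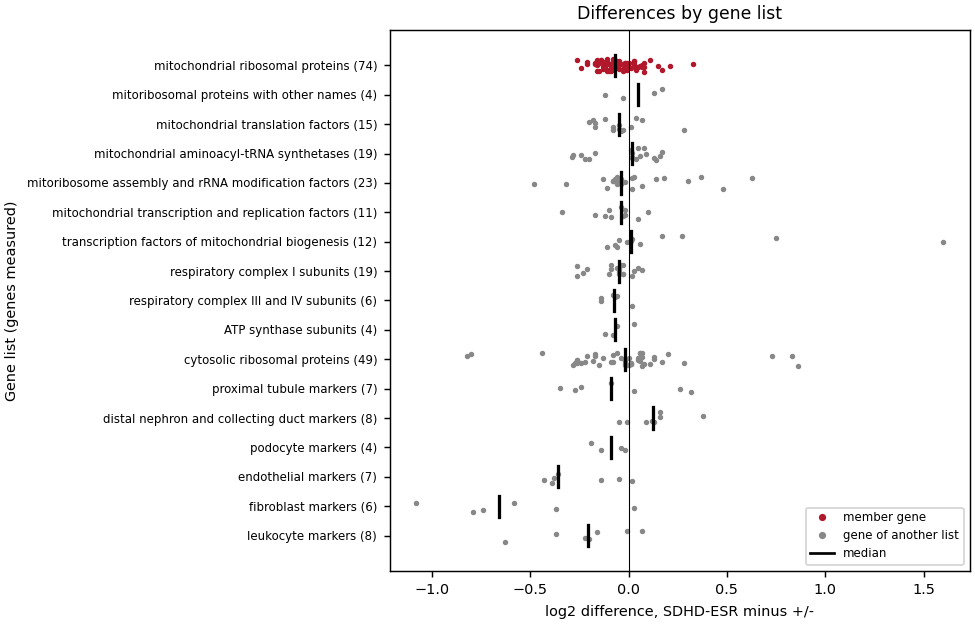
Log2 difference, SDHD-ESR minus +/-, of every measured gene in each list other than the red blood cell and fat tissue markers, with the list median as a black bar and the number of genes in brackets. The 74 mitochondrial ribosomal protein genes (red) lie between -0.26 and 0.33 around a median of -0.07, and the fibroblast and endothelial lists have medians of -0.66 and -0.36.

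In whole tissue, fewer cells of a type and less RNA per cell cannot be told apart. Markers of cell types were counted beside the members. Endothelial markers had a median difference of -0.36, with 6 of 7 lower, and fibroblast markers one of -0.66, with 5 of 6 lower. Leukocyte markers were at -0.21 (7 of 8 lower). Proximal tubule markers, from cells rich in mitochondria, were at -0.09 (4 of 7 lower). Of these, Slc22a6 and Slc34a1, at -0.27 and -0.24, were near 0 on 3 or more arrays, and the other 5 had a median of 0.03 (2 of 5 lower), from -0.35 to 0.32. Distal nephron markers were at 0.13 (2 of 8 lower). Podocyte markers were at -0.09 (4 of 4 lower), red blood cell markers at -0.24 (2 of 3 lower) and fat tissue markers at 0.00 (3 of 5 lower). None of these genes passed the adjusted test, and the part of cell makeup in the members' values was not tested. The tables hold ratios without intensities, so the levels of kidney markers themselves are not known.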

How the data were processed

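Kidney RNA of 4 SDHD-ESR and 4 +/- arrays was read against 1 +/+ pool. The authors labelled 200 ng of RNA per array, scanned the slides with a GenePix instrument and used Multi-Experiment Viewer. How background was corrected and arrays normalized is not given in the sources used here. As deposited, the values were treated as a score, because they mix log2 ratios with whole numbers of up to 65024. Whole numbers (9.05% of all values, 0.678% of the members' values) were set to missing. Table rows were assigned to features through a grid of 532 by 85 positions. The grid was chosen because repeated spots agreed on it, so their agreement is no support for it. Probe names came from the platform annotation, where 33026 features had 1 symbol, 12194 none and 0 several.

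The sign was turned on the Sdhd feature, and arrays were centred on their medians. The limma 3.58.1 package in R 4.3.3 was run on features with at least 3 values per group (a mean per group, two-sided, Benjamini-Hochberg over 39253 features, or 20076 genes after averaging features). Single differences have an exact permutation test over the 8 arrays. The steps were tested on simulated data. Each array carried RNA of different mice, so p-values measure the spread between these pools of 2 mice. The number of arrays limits the precision, and intensities are not known.

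Members, gene lists, motifs and alternatives were chosen with earlier results of these data known. The genes given in full are those of smallest unadjusted p in each direction (8 features each), the 3 highest and 3 lowest against the pool in each group, and a fixed list of members with known roles. Mrpl34, Mrpl38, Twnk and Ighmbp2 were added after their values were seen, as were Ndufb8, Ndufb9, Ndufa13 and the named cytosolic ribosomal protein genes. From the cytosolic ribosomal list, which was set by a symbol pattern, 8 genes that code for other proteins (such as the kinase Rps6ka3) were then left out. With them, 57 genes had a median of 0.00 and 29 were lower. The proximal tubule markers were also counted without genes near 0 on 3 or more arrays, after their values were seen. Alternatives were no centring, quantile normalization, scaled spreads and other filters on near-0, missing and whole values. Further ones were slide or replicate blocks, Student's t-test and leaving out each array.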

Additional observations from a re-analysis of the deposited data

Results flagged for a closer look

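In 62 groups of 4 arrays of the members named above, 3 held 1 array far from the others, and chance flags about 1 in 20 groups. Mrpl43 stood at 0.61 on +/- array 3, while the other +/- arrays stood between 0.14 and 0.19. Mrpl53 stood at 0.07 on +/- array 4, while the other +/- arrays stood between 0.15 and 0.16. Mrps18a stood at -0.03 on SDHD-ESR array 3, while the other SDHD-ESR arrays stood between 0.11 and 0.13.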

How the results depend on the processing

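No setting gave a member with an adjusted p of 0.05 or less between SDHD-ESR and +/-. The counts of called members below have no share of all features beside them, since none was counted under the other settings. For values of single named members under other settings, 599 kept their direction and side of the threshold, 22 kept only their direction and 45 changed sign. The cause of these changes was not tested. Depth limits cannot be given, because the tables hold no intensities.

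Without centring, all features shift up (median difference 0.28). The members' median was 0.20 (genes 0.19, large subunit 0.18, small subunit 0.23), 1 feature and 0 genes were lower, and 0 features were higher by unadjusted p. Against the pool the medians were 0.47 in SDHD-ESR and 0.25 in +/-, with 0 features called above in both. Differences that changed sign there were 0.19 (Mrpl11), 0.10 (Mrpl18), 0.11 (Mrpl3), 0.02 (Mrpl37), 0.25 (Mrpl40), 0.16 (Mrpl41), 0.00 (Mrpl43), 0.09 (Mrpl44), 0.21 (Mrpl50), 0.10 (Mrpl53), 0.24 (Mrps12), 0.25 (Mrps16), 0.13 (Mrps17), 0.12 (Mrps18a), 0.15 (Mrps18b), 0.05 (Mrps22), 0.23 (Mrps27), 0.11 (Mrps33) and 0.17 (Mrps36). Mrpl47 against the pool was 0.31 in SDHD-ESR and 0.05 in +/-.

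With quantile normalization 0 features were higher and 3 lower by unadjusted p, the large subunit median was -0.11, Mrpl45 was at 0.00, Mrps18c at -0.03 and Mrpl47 at 0.00 against the pool in SDHD-ESR. With scaled spreads 0 were higher and 4 lower, the large subunit median was -0.11, Mrpl45 and Mrps18c were at -0.01, and Mrpl47 against the pool was at 0.00 in SDHD-ESR and 0.01 in +/-. Without features near 0 on at least 2 arrays, Mrpl47 stood at 0.11 in SDHD-ESR and 0.13 in +/-. With slide as a block 1 feature was lower at an unadjusted p of 0.05 or less. Student's t-test gave 2 higher and 9 lower.

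Across all features, replicate numbers did not pair the arrays. Deviations of same-numbered arrays from their group means correlated at 0.04, 0.03, -0.02 and 0.07 across all features. Across the member features they correlated at -0.01, 0.34, -0.12 and 0.41. Arrays of unlike number ran there from -0.53 (SDHD-ESR array 1 with +/- array 4) to 0.47 (SDHD-ESR array 1 with +/- array 2). By slide, pairs on different slides ran from -0.53 to 0.14 across the members. Pairs on 1 slide, same-numbered ones included, ran from -0.18 to 0.47. The main fit has no term for slide. With the replicate number as a block, 9 features in SDHD-ESR and 7 in +/- were called above the pool, and 0 members passed between the groups.

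Leaving out each array in turn gave 0 to 2 higher and 0 to 1 lower features by unadjusted p. It gave 5 to 25 features above the pool in SDHD-ESR and 2 to 34 in +/-. Small differences changed sign within these ranges: Mrpl40 (-0.04 to 0.03), Mrpl45 (-0.01 to 0.07), Mrps12 (-0.05 to 0.03), Mrps16 (-0.06 to 0.03) and Mrps18c (-0.02 to 0.09). Against the pool, Mrpl43 in SDHD-ESR ran from -0.01 to 0.04, and Mrpl47 from -0.04 to 0.03 in SDHD-ESR and from -0.06 to 0.04 in +/-.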
